A study of Drosophila melanogaster with 4 samples.

Results

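The odorant-binding protein genes of Drosophila melanogaster were examined in larval fat body, in larvae fed with and without palm fruit juice (PFJ). Members were the array rows whose single gene symbol in the platform annotation begins with Obp and a digit, and 46 of the 13402 genes measured fitted this rule, each with 1 row. The choice used no measured value. The RefSeq table lists 51 genes with such a symbol, and 5 of them had no row of their own. Of these, Obp50b, Obp50c, Obp57b and Obp57d appeared in rows shared with another gene, and Obp83a was not analysed here. The gene lush, which RefSeq also lists as Obp76a, carries another symbol and is described below with the related genes.

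All larvae were of the white-eyed laboratory strain w1118 and were 5 days old, counted from the egg. The control group ate a semi-purified diet, and the PFJ group ate the same diet with palm fruit juice mixed in, which the labels give as 4 ml, for a content of phenolics of 19000 mg in each kg of diet or 0.86 mg in each kcal, counted as gallic acid. Each group had 2 Affymetrix arrays, and each array carried RNA pooled from the fat bodies of 10 larvae. The sexes in each pool are not stated in the labels. Nothing says that the pools came from separate cultures, so p-values measure only the spread between these pools. Values are log2 intensities made with RMA, a procedure that corrects background, equalises arrays and summarises the probes of each gene, so a difference of 1 is a factor of 2.

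Odorant-binding proteins are small secreted proteins with a hydrophobic pocket. The best known are made by support cells of antennal and taste hairs, where they carry odorants and other ligands through the fluid that bathes the receptor neurons. Many family members are made outside sensory organs, and the fat body, the larval organ that stores fat and secretes most proteins of the hemolymph, is one such source. No sequences are printed, because no sequence table was used here.

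The arrays held a strong fat body signature alongside RNA of other tissues. All 7 measured fat body markers, of 10 listed, exceeded the median level over all genes, and the storage protein gene Lsp2 averaged 12.26. Salivary gland markers averaged between 8.80 and 9.15 per array, and 7 of 8 were above that median. Neuron and glia markers averaged between 5.36 and 5.68 per array, and 6 of the 7 measured were above it. Of the measured imaginal disc markers 5 of 6 were above it, and of the trachea markers 3 of 4. Chemosensory organ markers averaged between 2.54 and 2.72, and 0 of the 7 measured were above it. Control replicate 2 stood apart on the first principal component, which held 63.8% of the variance, at 55.6 against values between -34.6 and 4.56 for the other arrays. Both replicate 1 arrays were negative on it and both replicate 2 arrays positive. The highest correlation of any pair, 0.968, was between control replicate 1 and PFJ replicate 1. Within groups it was 0.910 for control and 0.961 for PFJ. For the members, differences are therefore also given without single arrays where that matters. Those of the other lists are given with all 4 arrays only. In pooled tissue, fewer cells of a type and less RNA per cell cannot be told apart.

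Which members were present was read first from brightness. A few members were bright and most were dim. The mean over the 4 arrays exceeded the median of all genes, 4.00, for 6 of 46 members, against 6701 of 13402 genes by construction. These were Obp99b, Obp44a, Obp99c, Obp56d, Obp99a and Obp83g. Obp83g lay on the line itself, at 4.00. The next member down, Obp85a, averaged 3.45. Probes differ in affinity and no detection call was made, so brightness places a row roughly and does not rank transcripts against each other.

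A second reference was taken from the odorant, gustatory and ionotropic receptor genes, 174 in all, which serve sensory neurons. Their level had a 95th percentile of 3.10. By this line 10 of 46 members were brighter, which added Obp85a, Obp56a, Obp19b and Obp49a. The last of these is a taste organ protein that dampens sweet responses to bitter mixtures. Obp49a was above the line only on PFJ replicate 2, at 3.89, and its other arrays read between 2.86 and 3.02. The other 36 members, below the line by this choice, averaged between 1.94 and 3.08. Their median was 2.33, against 2.33 for all receptor genes, which ran from 1.86 to 4.05 with 9 of 174 above the line. The line alone did not set these 36 apart from most receptor rows. Among them were Obp28a and Obp83b, which are known from antennae.

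**Figure D1:**
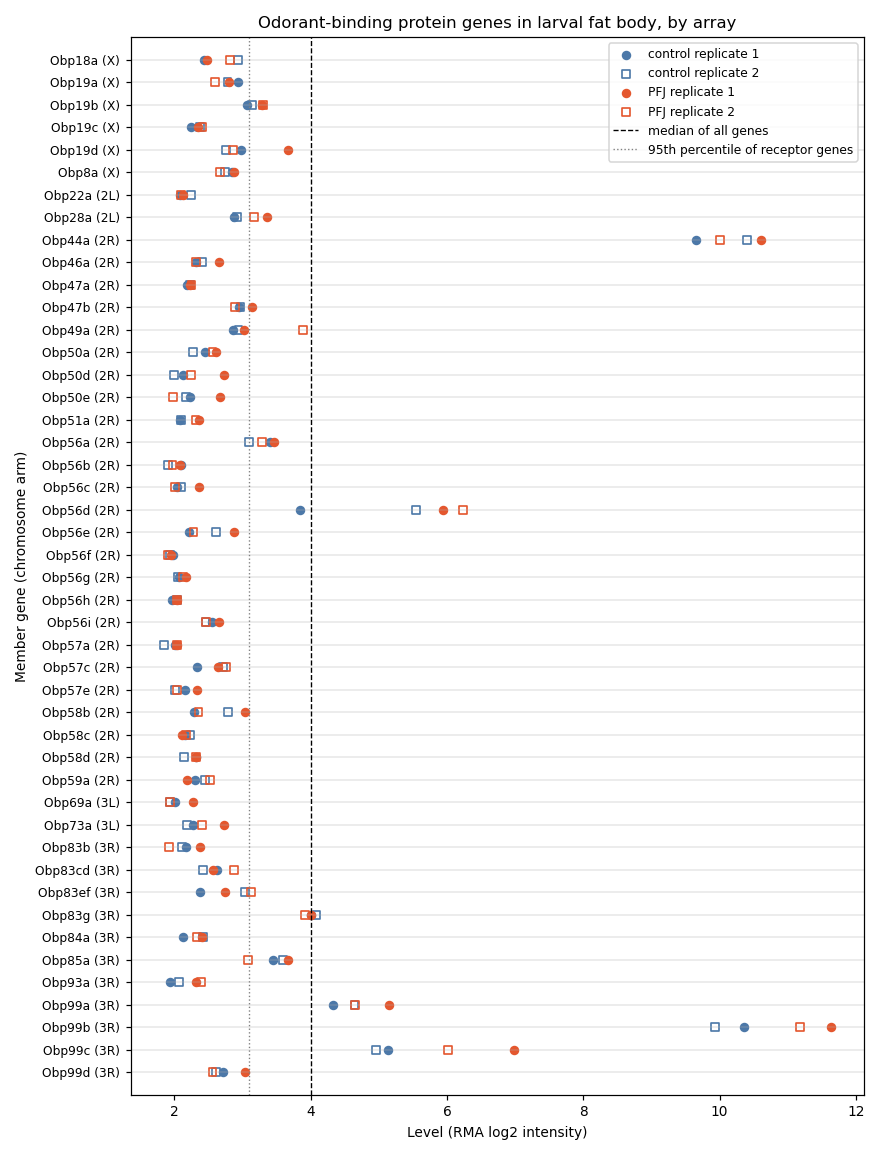
Level of each of the 46 odorant-binding protein genes (log2 intensity, x axis) on the 4 arrays, with genes ordered by chromosome arm (y axis); blue is control, orange is PFJ, filled circles are replicate 1 and open squares replicate 2. Obp99b and Obp44a lie near 10 on every array, Obp99c, Obp56d and Obp99a in the middle, and most other members left of both reference lines (4.00 and 3.10).

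The 2 brightest members were in the top 1% of genes. Obp99b was brighter than 99.7% of genes and ranked 35 of 13402 by mean level, and Obp44a was brighter than 99.4%, at rank 76. For scale on the same arrays, the fat body lipoprotein gene apolpp averaged 10.68 and the fat body protein gene Fbp1 averaged 10.10. Obp99c was brighter than 77.6% of genes, Obp56d than 72.5% and Obp99a than 62.2%. How much of each level came from tissues other than fat body was not tested.

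The bright members were not spread evenly over the family's gene clusters. In the group named for cytological division 99, on chromosome arm 3R, 3 of 4 members were above the median of all genes. In RefSeq's gene order (Release 6 assembly, used for order only) 5 genes separate Obp99a from Obp99c, 2 separate Obp99c from Obp99d, and 1 separates Obp99d from Obp99b. That last gene is Dup99B, which encodes a seminal peptide, and it averaged 2.00. Obp99d averaged 2.73. On the other side of Obp99b the nearest measured protein-coding gene, CG15506, averaged 4.62. Of the rows on either side of Obp99b, Dup99B was brighter than 1.46% of genes and CG15506 than 61.1%.

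In the larger group of division 56, on arm 2R, 1 of 9 members was above the median of all genes. Obp56d averaged 5.39. Its neighbours Obp56c and Obp56e, with 0 protein-coding genes between, averaged 2.12 and 2.49. The 9 members together had a median of 2.12. None of the 4 members of division 19 (arm X), the 3 of division 50, the 3 of division 57 or the 3 of division 58 (all 2R) was above the median of all genes. In division 83 (3R), Obp83g was the 1 of 4 that reached it. Obp44a, on 2R, is the family's only gene of its division, and its nearest measured protein-coding neighbours, Pabp2 and the lipid synthesis gene Lpin, averaged 8.08 and 6.65.

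**Figure D2:**
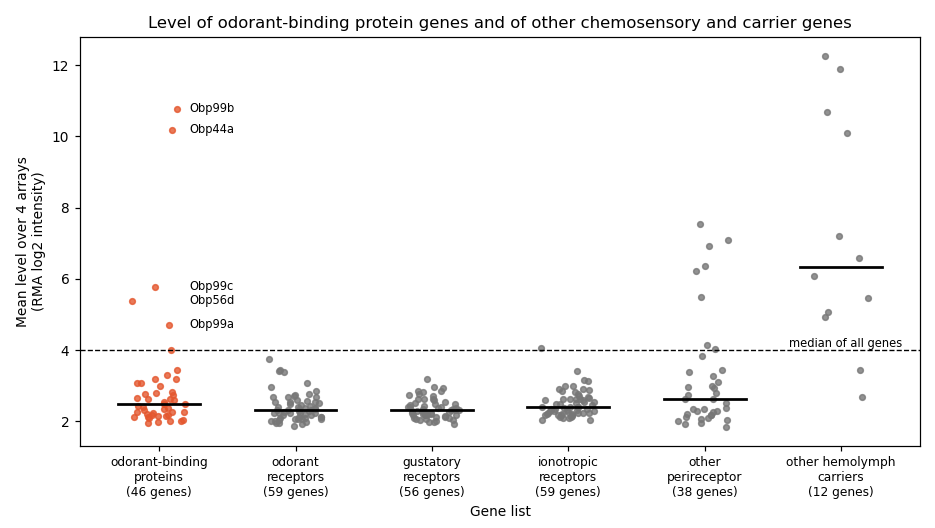
Mean level over the 4 arrays (log2 intensity, y axis) of the odorant-binding protein genes (orange) and of 5 other gene lists (grey), 1 point per gene, with a bar at each list's median and a dashed line at the median of all genes, 4.00. The members show a few bright genes above a dim mass at the height of the 3 receptor families.

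The comparison of PFJ with control then asked how the members differed with diet. No member passed. Limma gave 0 members and 0 of 13402 genes (0%) at an adjusted p under 0.05, and the smallest adjusted p was 1. At an unadjusted p under 0.05 there were 2 of 46 members, Obp99b and Obp99c, both higher with PFJ. This is 4.35% of members, against 2.78% of all genes, of which 1.74% were higher and 1.04% lower. A share from 2 genes lies close to this background. With 2 arrays against 2, an exact two-sided permutation test cannot go below a p of 0.333 for any gene.

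Obp99b, which RefSeq also lists as tsx and which is known from adult flies as a male-biased gene of head fat cells, had the smallest p of the family. The control arrays read 10.37 (replicate 1) and 9.93 (replicate 2), and the PFJ arrays 11.63 (replicate 1) and 11.19 (replicate 2). Both PFJ arrays were above both control arrays, and the gaps within groups were 0.43 and 0.44. The means were 10.15 ± 0.31 and 11.41 ± 0.31 (SD, n = 2 each), a log2 difference of 1.26 (SE 0.27, 95% interval 0.51 to 2.01), or 2.39-fold. Limma's unadjusted p was 0.00936 and its adjusted p 1, and 67 genes of the array had a smaller p. Leaving out each array in turn gave differences from 1.04 to 1.48.

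Obp99c, from the same cluster, showed a difference of like size from a lower level. It read 5.14 and 4.96 in the controls and 6.98 and 6.02 with PFJ. The groups did not overlap, but the PFJ arrays were 0.96 apart. The means were 5.05 ± 0.13 and 6.50 ± 0.68 (SD, n = 2 each), a log2 difference of 1.45 (SE 0.38, 95% interval 0.40 to 2.51), or 2.74-fold, with an unadjusted limma p of 0.0186 and an adjusted p of 1. Without PFJ replicate 1 the difference was 0.97, and without PFJ replicate 2 it was 1.94.

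Obp99a, the third of the bright division 99 genes, read 4.32 and 4.64 in the controls and 5.15 and 4.65 with PFJ. PFJ replicate 2 lay just above control replicate 2, so the groups did not overlap by only a narrow margin. The log2 difference was 0.42 (SE 0.26, 95% interval -0.31 to 1.14; unadjusted p 0.184). It was 0.17 without PFJ replicate 1 and 0.67 without PFJ replicate 2. Obp99d, the dim gene of this cluster, read 2.71, 2.60, 3.04 and 2.56 on the same arrays in the same order, and its groups overlapped.

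Obp56d had a difference between those of Obp99b and Obp99c in size, with a wider gap between its control arrays. It read 3.84 and 5.54 in the controls and 5.94 and 6.23 with PFJ. Control replicate 1 was low by itself, while control replicate 2 was close to the PFJ arrays. The means were 4.69 ± 1.20 and 6.09 ± 0.20 (SD, n = 2 each), a log2 difference of 1.40 (SE 0.63, 95% interval -0.35 to 3.14; unadjusted p 0.0902). Without control replicate 1 the difference was 0.55 (unadjusted limma p 0.124, adjusted p 0.765), and without control replicate 2 it was 2.25 (p 0.00192, adjusted p 1).

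Obp44a, known in the fly nervous system as a lipid-binding protein released by glia, overlapped between groups. It read 9.66 and 10.40 in the controls and 10.61 and 10.002 with PFJ. Control replicate 1 was lowest and PFJ replicate 1 highest. The log2 difference of 0.27 (SE 0.37, 95% interval -0.76 to 1.31; unadjusted p 0.503) was smaller than the gap of 0.74 between the control arrays and of 0.61 between the PFJ arrays. Its sign turned to -0.10 without control replicate 1 and to -0.03 without PFJ replicate 1.

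Obp83g, the member on the median line, had the narrowest interval of the 6. It read 4.01 and 4.08 in the controls and 4.00 and 3.91 with PFJ. The groups did not overlap by only a narrow margin, with control replicate 1 at 4.009 and PFJ replicate 1 at 4.002. The gaps within groups were wider, at 0.075 and 0.092. This was the 1 member lower with PFJ on both arrays. The log2 difference was -0.09 (SE 0.16, 95% interval -0.54 to 0.36; unadjusted p 0.605).

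**Figure D3:**
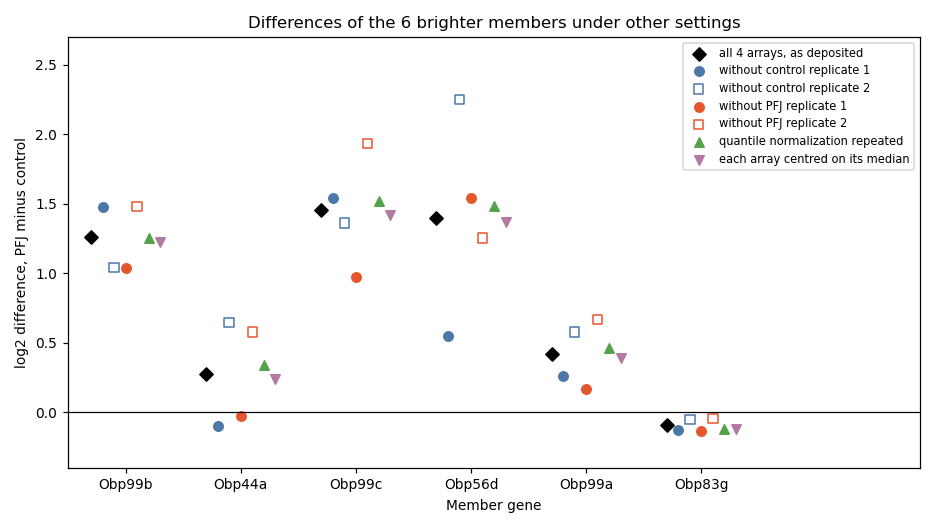
log2 difference, PFJ minus control (y axis), of the 6 members above the median of all genes (x axis), with all 4 arrays as deposited (black), without each array in turn (blue and orange) and under 2 other scalings (green and purple). Obp99b and Obp99c stay near or above 1 in all 7 settings shown, Obp56d ranges from 0.55 to 2.25 and Obp44a lies on both sides of 0.

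The differences of Obp99b and Obp56d were set beside transcripts that vary with sex and with tissue. For roX1, an RNA made in males, the levels were 8.58 and 5.95 in the controls and 9.30 and 8.69 with PFJ. The levels of a second such RNA, roX2, were 2.52 and 2.06 in the controls and 3.71 and 2.80 with PFJ. Like Obp99b and Obp99c, both were higher in replicate 1 than in replicate 2 of each group, and higher with PFJ on both arrays than on both control arrays. Of the 6 transcripts listed for a link to sex, 5 had groups that did not overlap, all higher with PFJ, against 15.5% of all genes. The 3 yolk protein genes, known from adult females, were among these 5 and averaged between 2.92 and 3.57. The remaining transcript, msl-2, overlapped. The 9 testis markers averaged 4.43 and 2.64 in the controls and 4.25 and 3.53 with PFJ. Their mean was thus highest in control replicate 1, and 0 of the 9 had groups that did not overlap. The part of the sex of the pooled larvae in the Obp99b difference was not tested.

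The mean of the 9 measured midgut markers, of 12 listed, was 5.69 and 6.80 in the controls and 6.32 and 7.28 with PFJ. Their summary was thus lowest in control replicate 1, as for Obp56d, and 1 of these 9 markers was higher with PFJ without overlap, 1 lower. Single markers differed: Jon65Aiii, alphaTry, betaTry and Mur29B were highest in control replicate 2. Jon25Biii, Amy-p, Mal-A1, Mal-A4 and LManV were highest in PFJ replicate 2. Of the 9, 7 were above the median of all genes, and levels ran from 2.99 for the amylase gene Amy-p to 11.01 for the protease gene Jon65Aiii. Hemocyte markers, 9 of 9 measured, averaged 4.08 and 4.43 in the controls and 4.30 and 4.59 with PFJ. Their mean was also lowest in control replicate 1 and highest in PFJ replicate 2. Of these 9, 4 were higher with PFJ without overlap and 0 lower, and 3 had an unadjusted limma p under 0.05, the hemocyte protein gene Hml at 0.68 and the prophenoloxidase genes PPO1 at 1.26 and PPO2 at 0.78 on the log2 scale. The fat body markers averaged 9.29 and 9.02 in the controls and 9.33 and 9.72 with PFJ. Of the 7 measured, 5 were higher with PFJ without overlap and 1 lower. Over all genes, 15.5% were higher without overlap and 13.1% lower, and 2.78% had an unadjusted limma p under 0.05. The part of midgut, hemocytes and fat body in the Obp56d, Obp99b and Obp99c differences was not tested.

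**Figure D4:**
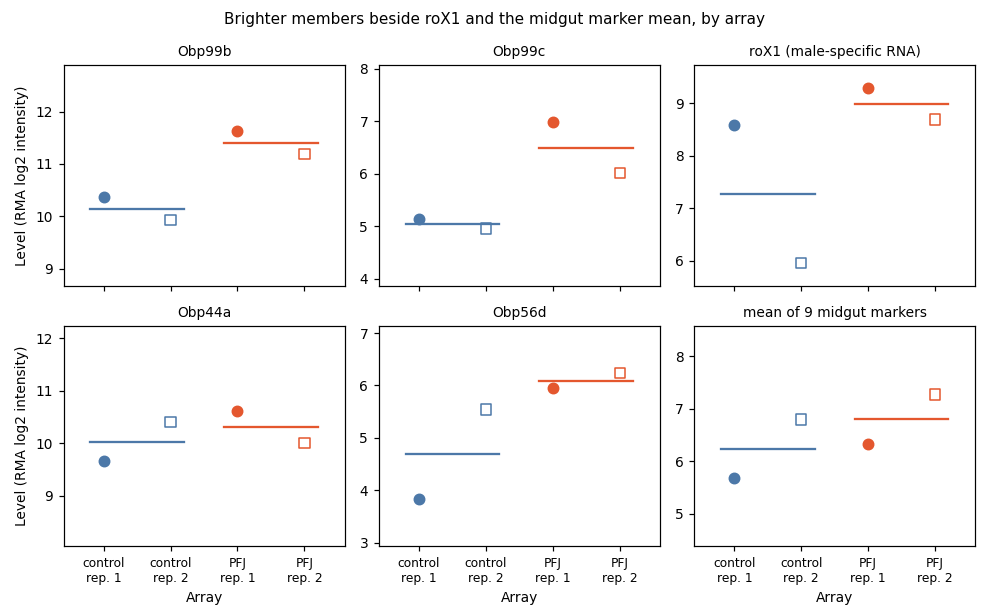
Level on each array (log2 intensity, y axis; each panel spans the same range) of 4 bright members, of roX1 and of the mean of 9 midgut markers; blue is control, orange PFJ, and the short lines are group means. Obp99b, Obp99c and roX1 are higher in replicate 1 of each group, while Obp56d and the midgut mean are lowest in control replicate 1 and highest in PFJ replicate 2.

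Among the 40 members below the median level, 0 had an unadjusted p under 0.05. The 5 with the smallest p were Obp93a, Obp28a, Obp50d, Obp73a and Obp49a. Obp93a read 1.94 and 2.06 in the controls and 2.32 and 2.38 with PFJ, for a difference of 0.35 on the log2 scale (SE 0.16; unadjusted p 0.0987). The arrays of each group were close together, and the groups did not overlap, but the row was brighter than only 4.48% of genes. Obp28a read 2.88, 2.92, 3.36 and 3.17 on control replicates 1 and 2 and PFJ replicates 1 and 2, a difference of 0.36 (SE 0.17; unadjusted p 0.0995).

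The remaining 3 owed more to 1 array. Obp50d read 2.12, 2.00, 2.73 and 2.25 in the same order, a difference of 0.43 (SE 0.23; unadjusted p 0.142) that was 0.19 without PFJ replicate 1. Obp73a read 2.28, 2.18, 2.72 and 2.40, a difference of 0.33 (SE 0.20; unadjusted p 0.162) that was 0.18 without PFJ replicate 1. Obp49a read 2.86, 2.94, 3.02 and 3.89, so PFJ replicate 2 alone stood out. Its difference of 0.55 (SE 0.34; unadjusted p 0.184) was 0.12 without PFJ replicate 2 and 0.98 without PFJ replicate 1.

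The other 35 members had differences between -0.15 and 0.40, with unadjusted p-values from 0.197 to 0.978. In 29 of these 35 the groups overlapped. In 6 (17.1%) both PFJ arrays were above both control arrays, against 20.9% of genes below the median level. Their SEs ran from 0.16 to 0.33. Of all 46 members, 42 differed by less than 0.5 on the log2 scale and 3 by more than 1. More than 1 log2 unit was seen in 1.96% of all genes, in either direction.

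**Figure D5:**
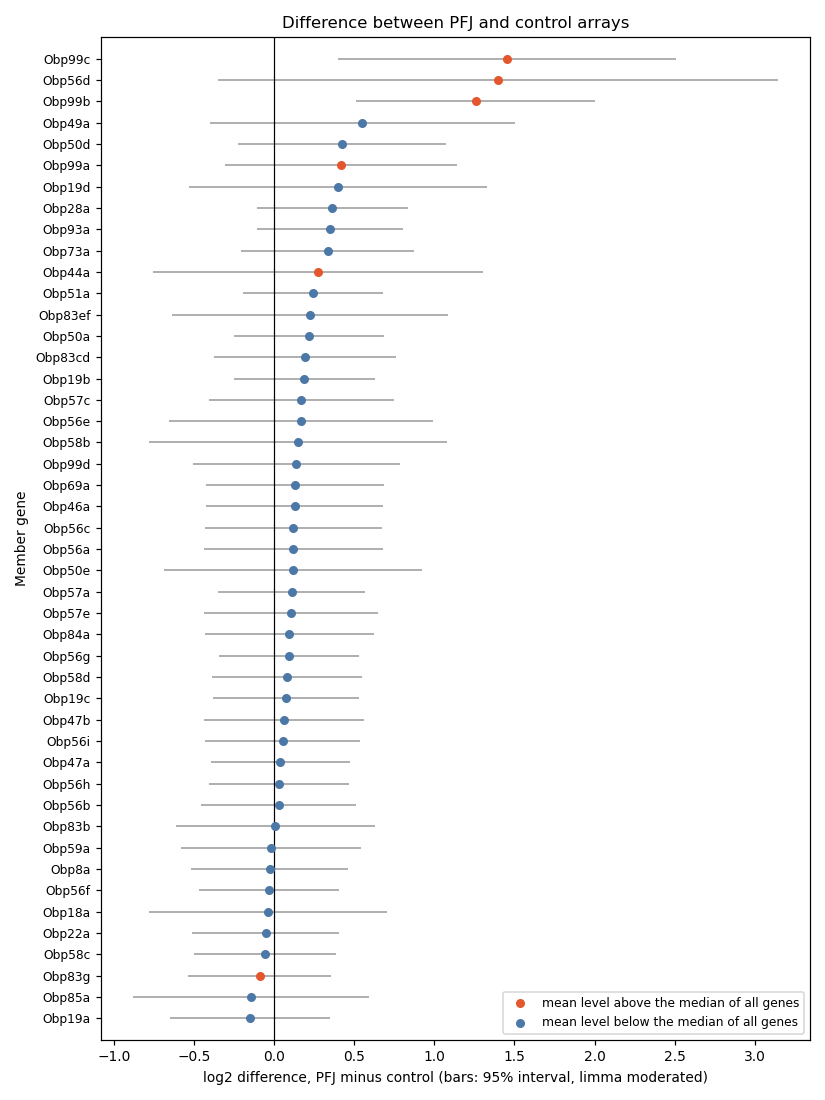
log2 difference, PFJ minus control (x axis), of all 46 members in order of size (y axis), with 95% intervals from limma; orange points are members above the median level of all genes and blue points those below. The intervals of Obp99c and Obp99b lie above 0, and those of the other 44 members include 0.

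Small differences above 0 were common in the family, and the size of this lean depended on how the arrays were scaled. As deposited, 37 of 46 members had a difference above 0 (80.4%), against 51.9% of all genes, 63.7% of genes below the median level and 73.0% of the receptor genes, but with quantile normalization repeated the counts were 27 of 46 (58.7%), 44.7%, 42.6% and 39.7%. With each array centred on its median they were 35 of 46 (76.1%), 46.7%, 57.1% and 62.1%. The median difference over the members was 0.12, against 0.01 for all genes, 0.06 for genes below the median level and 0.07 for the receptor genes, and it was 0.02 with quantile normalization repeated and 0.09 with each array centred on its median. Both PFJ arrays were above both control arrays in 15 of 46 members (32.6%). The share was 15.5% of all genes, 20.9% of genes below the median level and 22.4% of the receptor genes. Both were below in 1 member (2.17%), against 13.1%, 8.64% and 4.60%. The lean was not particular to the family. Of the 38 other perireceptor and chemosensory proteins described below, 33 had a difference above 0 as deposited (86.8%). In 14 of them (36.8%) both PFJ arrays were above both control arrays, and in 0 both were below. With quantile normalization repeated, 9 members were higher and 7 lower, against 11.3% and 15.2% of all genes. With each array centred on its median these were 10 and 2 members, against 12.1% and 12.9%. The dim end of the arrays moved with this. The lower quartile of all genes was 2.88 in control replicate 1 and 2.75 in control replicate 2, against 2.99 in PFJ replicate 1 and 2.85 in PFJ replicate 2. PFJ replicate 1 was the highest array in 25 of 46 members, against 41.0% of genes below the median level. Without PFJ replicate 1, 25 of 46 members had a difference above 0 (54.3%) and the median was 0.04.

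The larger differences of the bright members stayed above 1 on the log2 scale under both scalings. With quantile normalization repeated, Obp99b differed by 1.25, Obp99c by 1.52 and Obp56d by 1.49. With each array centred on its median the values were 1.23, 1.42 and 1.37. Centring moves every gene's difference by the same amount, so these differences were large beside the shift and not steadier. Obp44a, Obp99a and Obp83g differed by 0.34, 0.46 and -0.12 with quantile normalization repeated. With each array centred on its median they differed by 0.24, 0.39 and -0.12.

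The other genes of odorant reception gave a dim setting for the members. Of 59 odorant receptors 0 exceeded the median level over all genes, of 56 gustatory receptors 0 and of 59 ionotropic receptors 1, Ir62a at 4.05. The odorant co-receptor Orco, the partner of the odorant receptors, averaged 3.74 and differed by 0.30 (SE 0.26). At an unadjusted p under 0.05 there were 0 higher and 0 lower in each of these families by limma, with 0 at an adjusted p. The odorant-binding protein lush, a pheromone carrier of antennal hairs, read 2.15 and 2.27 in the controls and 2.39 and 2.34 with PFJ.

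Among 38 other perireceptor and chemosensory proteins, 8 exceeded the median level over all genes. The brightest was Phk-3, of a different small chemosensory protein family, which averaged 7.53 and differed by 0.43 (SE 0.16). Npc2c, of the sterol-binding Niemann-Pick type C2 family, averaged 6.36 and differed by 1.68 (SE 1.00), and its groups overlapped. It read 4.45 and 6.58 in the controls and 6.28 and 8.11 with PFJ. At an unadjusted p under 0.05 there was 1 gene higher, Npc2g at 0.56 (SE 0.17), and 0 lower, against 1.74% and 1.04% of all genes. The list had a median difference of 0.15.

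Most genes of a list drawn up for other hemolymph carriers were bright. Whether each product is a secreted ligand carrier was not checked. Of 12 measured genes of this list, 10 exceeded the median level over all genes. Lsp2 averaged 12.26 and differed by -0.07 (SE 0.16), Fbp2 averaged 11.90 and differed by 0.38 (SE 0.18), apolpp differed by 0.49 (SE 0.21) and Fbp1 by 0.12 (SE 0.16). At an unadjusted p under 0.05 there were 2 of 12 higher and 0 lower, against 1.74% and 1.04% of all genes. The 2 higher genes were regucalcin at 0.88 (SE 0.21) and the iron carrier gene Tsf1 at 1.78 (SE 0.60). Tsf1 read 6.51 and 4.89 in the controls and 7.41 and 7.56 with PFJ, so control replicate 2 was low by itself. The median difference over the list was 0.03, with 6 values above 0 and 6 below.

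Rows shared with a second gene were kept apart from the members. The row of Obp57d and the cuticle gene Cpr57A read 5.41 and 4.99 in the controls and 5.19 and 5.09 with PFJ, and which of its 2 genes gave that signal was not tested. The row of Obp50b and Obp50c read 2.85 and 2.30 in the controls and 2.86 and 2.43 with PFJ. The row of Obp57b and Obp57c read 1.84 and 1.74 in the controls and 1.92 and 1.91 with PFJ. Groups overlapped in the first and second of these rows, and in the last both PFJ arrays were above both control arrays.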

How the data were processed

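Expression was measured on 4 single-colour Affymetrix arrays, 2 control and 2 PFJ. The authors deposited RMA log2 intensities, with 1 value for each transcript cluster on each array; the submitters' processing notes name Affymetrix Expression Console (version 1.4.0.38) as the software. That these are log2 values follows from their range, 1.36 to 12.73. Build and annotation are not given in the sources used here, and coordinates are left out for that reason. Precision is limited by the number of arrays.

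Of 16322 rows, 13441 had 1 symbol in the platform annotation and 555 had several. For 37 genes with several rows the brightest was kept, which left 13402 genes. All 46 members matched a RefSeq gene identifier.

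The deposited values were fitted in R 4.3.3 with limma 3.58.1 (lmFit and eBayes, two-sided, no covariate, 4.01 degrees of freedom), with Benjamini-Hochberg adjustment over 13402 genes and a threshold of 0.05. Members printed array by array were those above the median level of all genes and the 8 with the smallest unadjusted p. From the 6 other lists, the rule took up to 4 genes by level and 4 by p. Neighbouring genes were named by position, and lush, Obp99d, single tissue markers and members with a p under 0.05 in other settings after their values were seen. The members and lists were chosen with earlier results of these data known. Alternatives covered scaling, filters on dim genes, the variance prior, shared rows, a replicate block and leaving out each array.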

Additional observations from a re-analysis of the deposited data

How the results depend on the processing

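In all 11 alternatives 0 genes passed adjustment by limma, with between 192 and 945 genes at an unadjusted p under 0.05. The count of members at that p was 4 with eBayes using a trend on level, which added Obp51a and Obp93a, and from 2 to 3 when each array was left out. Obp99b was among them except without PFJ replicate 1 (unadjusted p 0.0522), and Obp99c except without control replicate 2 (0.0610). The median difference of the members was 0.35 over the 8 left without the dimmest 33.3% of genes and 0.84 over the 6 left without the dimmest 50%, because fewer and brighter members remained, and from 0.04 to 0.18 when each array was left out. The number of members above the median level was 10 with the receptor genes as reference, and 5 to 6 when each array was left out. Of 111 alternative values of the 11 members printed in full, 2 changed sign. Both were of Obp44a, whose values without single arrays ran from -0.10 to 0.64. The cause was not tested. Same-numbered arrays deviated together (correlation across genes 0.34), but with 2 pairs the numbers are not known to pair the pools. With the replicate number as a block, 3 members had an unadjusted p under 0.05 (Obp99b, Obp99c and Obp56d), 547 genes did, and 0 genes passed adjustment. Dim rows, which most members are, limit what can be seen.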
